A study of Mus musculus with 39 samples.

Results

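Antioxidant enzymes and targets of the transcription factor NRF2 were followed in 10 genes, Nqo1, Hmox1, Gclc, Gclm, Txnrd1, Srxn1, Sod1, Sod2, Cat and Gpx1, in the kidney, liver, lung and skin of ageing perforin-deficient mice. The genes were picked by symbol, as textbook members of the response, at a time when earlier results of these data were known. All 10 were found among the 24537 genes of the kidney, liver and lung table and among the 52508 genes of the skin table. Bulk RNA was counted at the 3′ ends of transcripts (a MARS-seq derivative), and values are given as counts per 1000000 counts of the library (CPM) after scaling of the libraries.

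All mice were Prf1-/- males on a C57BL/6 background, and lack perforin, the pore-forming protein of cytotoxic lymphocytes. No wild-type mice were analysed here, so all comparisons are within that genotype. Young mice were 3 months old and untreated (4 libraries in kidney, liver and lung, and 3 in skin). Vehicle mice were 20 months old and had received a DMSO-based solution, and ABT-737 mice were 20 months old and had received ABT-737, an inhibitor of anti-apoptotic BCL-2 proteins, at 25 mg/kg on 2 consecutive days a month for 2 months from 18 months of age (3 libraries each in every tissue). Age and vehicle injection cannot be told apart between young and vehicle mice. Liver was the shallowest tissue, with library totals of 223957 to 891116 counts. Kidney libraries held 1431814 to 3513311 counts, lung libraries 1046508 to 2600092 and skin libraries 1493411 to 3842808. Epithelial markers were found where they belonged: the summed hepatocyte list was at 47668 to 80460 CPM in liver, the kidney tubule list at 11469 to 14156 CPM in kidney, the lung epithelium list at 27593 to 60267 CPM in lung and the keratinocyte list at 10108 to 37228 CPM in skin. Skin libraries also held skeletal muscle RNA, with 7447 to 66708 CPM over the 6 muscle markers. Prf1 itself was counted in every lung and skin library. Where the disruption lies relative to the 3′ tags is not given in the sources used here, so Prf1 is no check of the genotype.

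NRF2, encoded by Nfe2l2, is held at low levels by KEAP1 and accumulates when electrophiles or oxidants modify KEAP1. It then drives genes that carry an antioxidant response element, among them NQO1, a quinone reductase, HO-1 (Hmox1), which degrades haem to biliverdin, iron and carbon monoxide, both subunits of the enzyme that makes the precursor of glutathione (Gclc and Gclm), and the thioredoxin reductase and sulfiredoxin that keep thioredoxin and peroxiredoxins active (Txnrd1 and Srxn1). Superoxide dismutases (Sod1 in the cytosol, Sod2 in mitochondria) turn superoxide into hydrogen peroxide, which catalase (Cat, in peroxisomes) and glutathione peroxidase 1 (Gpx1) remove. Hmox1 is also repressed by BACH1, a haem sensor, and is a gene of macrophages that clear red blood cells.

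The promoters are shown because the members were grouped by a shared regulator. RefSeq promoter sequences (GRCm38.p6, 250 bases before to 50 after the start) matched 8 of the 10 members, all but Hmox1 and Gclc. The core of the antioxidant response element was searched as TGACNNNGC on both strands, and 4 of the 8 promoters held it, Gclm, Txnrd1, Srxn1 and Sod1. Of all 32851 promoters in the same set, 12.4% held it. The 29-base windows below are written 5′ to 3′ on the strand of the gene, and capitals mark the match, which in each lies on the opposite strand and so reads as its reverse complement. The match begins 134 bases before the annotated start in Gclm, 92 before it in Txnrd1 and 36 before it in Sod1, and in Srxn1 it begins 28 bases after it.
Gclm (chr3:122245413-122245441, plus strand): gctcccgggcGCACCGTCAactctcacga
Txnrd1 (chr10:82859104-82859132, plus strand): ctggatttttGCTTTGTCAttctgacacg
Srxn1 (chr2:152105542-152105570, plus strand): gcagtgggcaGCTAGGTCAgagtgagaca
Sod1 (chr16:90220696-90220724, plus strand): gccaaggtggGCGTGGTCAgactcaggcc
The windows differ outside the fixed letters, and a match is a description of these letters only. Nqo1, Sod2, Cat and Gpx1 held no match in this stretch.

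In young mice 8 of the 10 members were highest in kidney or liver and lowest in lung, and the exceptions were Hmox1 and Nqo1. These levels come from 1 scaling of the 12 young kidney, liver and lung libraries. EdgeR's quasi-likelihood test called 9 of the 10 members higher in kidney than in lung (74.7% of all genes were called in either direction), 8 higher in liver than in lung (background 69.4%) and 7 between kidney and liver (background 51.5%). Most genes differed between these tissues, and the members' counts are read against that background. Cat was at 1042 ± 103 CPM in liver, 277 ± 24.1 in kidney and 91.4 ± 7.58 in lung (SD, n = 4 each), an 11.4-fold range between liver and lung. Gpx1 followed the same order, with 5954 ± 635 CPM in liver, 3899 ± 241 in kidney and 590 ± 134 in lung, as did Sod1, with 2421 ± 291, 1181 ± 91.5 and 457 ± 116 CPM. Every step between neighbouring tissues in these orders passed the test. Gclm was highest in kidney, at 601 ± 61.7 CPM against 413 ± 51.8 in liver and 86.5 ± 12.6 in lung. Gclc did not differ between kidney (278 ± 31.8 CPM) and liver (288 ± 83.0 CPM) beyond its spread (log2 difference -0.05, SE 0.166, adjusted p = 0.822), and was 3.28-fold higher in kidney than in lung. Txnrd1 likewise did not separate kidney (84.1 ± 10.4) from liver (96.9 ± 24.7), with 23.4 ± 4.91 in lung. Nqo1 was a kidney gene among the 3, at 20.2 ± 2.97 CPM, with 0 to 4 counts a library in liver and 5 to 9 in lung, and liver and lung did not differ beyond their spread (log2 difference 0.03, SE 0.725, adjusted p = 0.984). Sod2 was at 562 ± 37.5 CPM in kidney against 423 ± 23.1 in liver and 88.0 ± 15.2 in lung, and Srxn1 at 58.3 ± 2.64, 42.1 ± 6.56 and 21.7 ± 3.48. The kidney-to-liver steps of Sod2 and Srxn1 passed the test in this scaling (adjusted p = 0.0186 and 0.0402) but not with DESeq2's size factors, which moved the median of all genes by -0.13 on the log2 scale between kidney and liver and by -0.17 between kidney and lung. Hmox1 had 37.6 ± 9.79 CPM in kidney, 28.7 ± 6.03 in lung and 23.2 ± 11.1 in liver, and no pair of tissues passed the test (adjusted p from 0.0522 to 0.371).

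**Figure D1:**
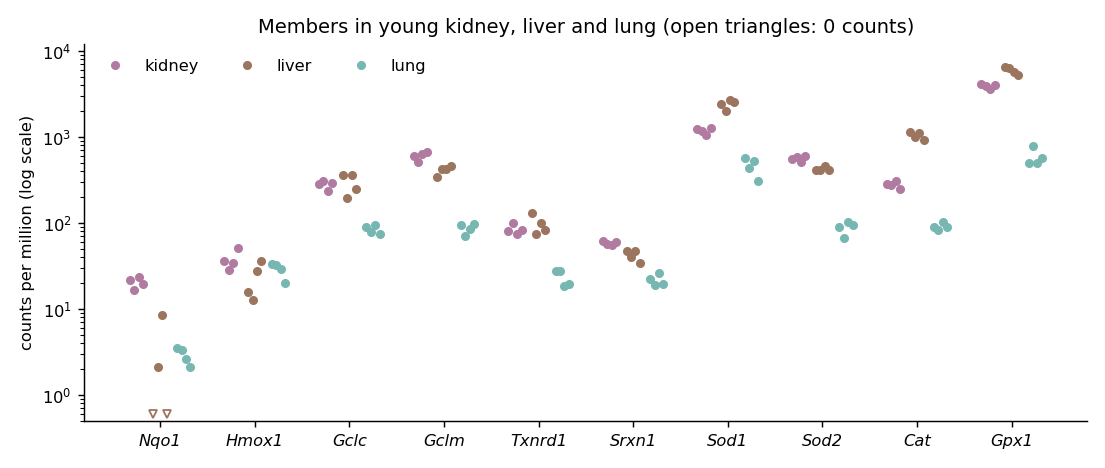
Each point is 1 young library (4 a tissue) and the vertical axis gives CPM on a log scale, with libraries at 0 counts drawn as open triangles at the bottom. For 9 members the lung points lie below those of kidney, and for Hmox1 the points of the 3 tissues mix.

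Between vehicle and young mice Hmox1 was the one member called in more than 1 tissue. The share of all genes called in more than 1 tissue was not counted. Kidney had 3 of 10 members called, where 13.3% of all genes were. Liver had 2 of 9 (background 22.6%), lung 1 of 9 (background 12.9%) and skin 1 of 10 (background 11.2%). Nqo1 did not pass the expression filter in liver and lung and was not tested there. Hmox1 rose in liver, lung and skin, Txnrd1 and Srxn1 rose in kidney, Gclc fell in kidney and Cat fell in liver. Sod1, Sod2, Gpx1, Gclm and Nqo1 were not called in any tissue for this contrast. The median log2 fold change of the members tested was -0.07 for kidney, -0.21 for liver, 0.24 for lung and 0.52 for skin, beside 0.01, 0.02, 0.04 and 0.05 over all genes tested.

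With ABT-737 fewer genes were called, over the whole table as well as among the members. Of the members tested, 1 of 9 was called between ABT-737 and vehicle mice in liver, namely Hmox1, which fell (background 3.85%). In kidney 0 of 10 were called by edgeR (background 1.35%), with 3 members at an unadjusted p under 0.05 and 1, Cat, called by DESeq2. In lung 0 of 9 were called and so were 0% of all genes, with 2 members at an unadjusted p under 0.05 and 0 members called by DESeq2. In skin 0 of 10 were called and again 0% of all genes, with 1 member at an unadjusted p under 0.05 and 0 called by DESeq2. Over all genes, 1919 had an unadjusted p under 0.05 in lung and 1134 in skin, and DESeq2 called 301 and 60. The 0 over all genes in lung was not stable, with 874 genes called with the replicate number as a block, 359 without a filter on low counts, 676 when replicate 4 of the ABT-737 group was left out and 122 when its replicate 5 was, while 0 members were called in those last fits. ABT-737 replicate 4 in lung also stood apart in markers of other tissues, with 3717 CPM of the adipocyte list (65.5 to 161 in the other lung libraries) and 817 CPM of the hepatocyte list (2.99 to 241). Between ABT-737 and young mice 1 of 10 members was called in kidney (Txnrd1, background 2.12%), and 0 of 9 in liver (background 8.4%), 0 of 9 in lung (background 2.55%) and 0 of 10 in skin (background 5.17%), where 1, 1 and 3 members had an unadjusted p under 0.05. DESeq2 called 0 members in liver, 1 in lung and 2 in skin for this contrast. Both drug contrasts and the age contrast share groups, so their calls are not independent of each other.

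**Figure D2:**
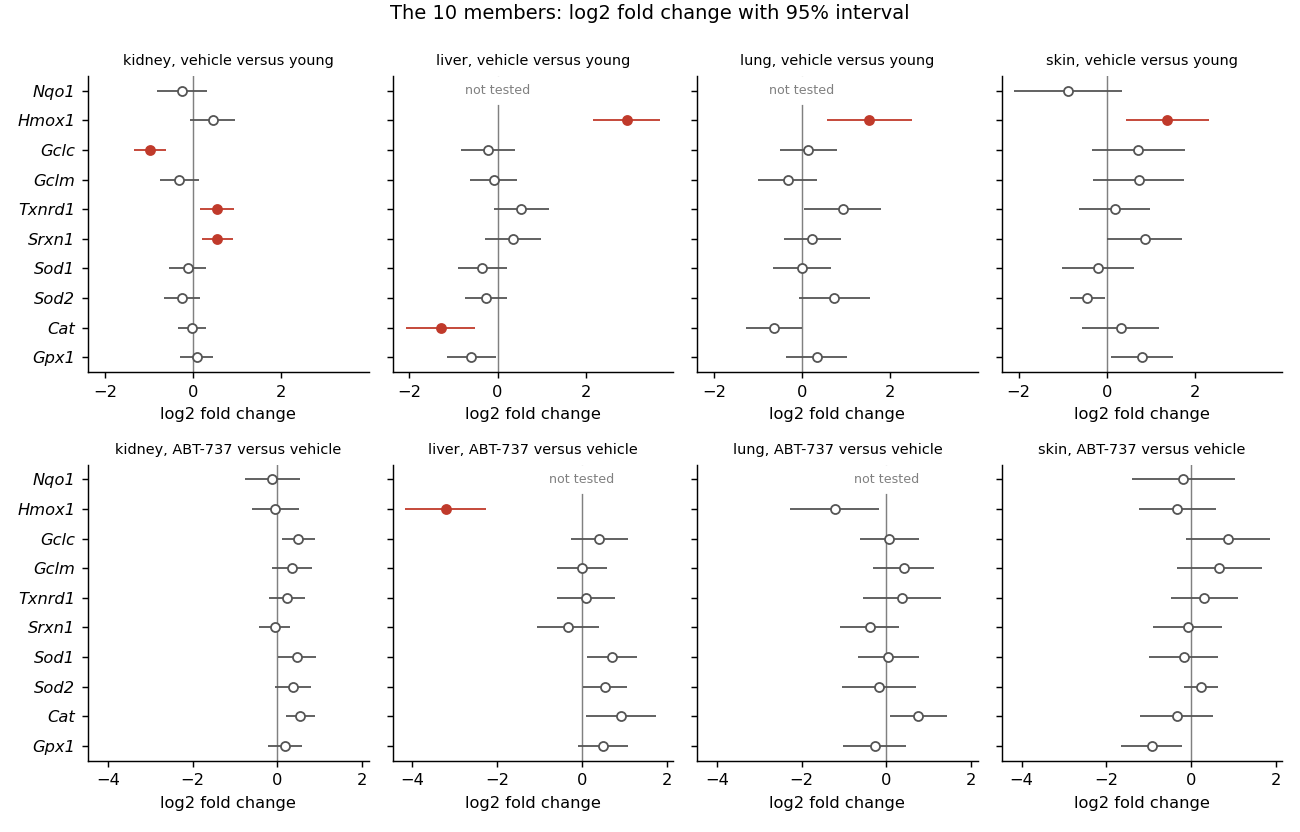
Points are log2 fold changes of the 10 members from edgeR in each tissue, bars are 95% intervals, and filled red points passed an adjusted p of 0.05. In the upper row (vehicle against young) Hmox1 lies to the right in liver, lung and skin, and in the lower row (ABT-737 against vehicle) the filled point is Hmox1 in liver, at -3.22.

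Hmox1, the haem-degrading enzyme, gave the largest log2 fold changes among the members tested, in both contrasts in liver. In liver the young libraries had 11.6, 8.94, 20.0 and 26.9 CPM, the vehicle libraries 82.9, 146 and 143 CPM, and the ABT-737 libraries 19.8, 13.3 and 9.90 CPM. Every vehicle library was above every other liver library, and the ABT-737 libraries lay within the range of the young ones. The rise from young to vehicle was 7.65-fold (log2 fold change 2.94, SE 0.322, edgeR adjusted p = 2.25e-05), and vehicle to ABT-737 was a 9.30-fold fall (log2 fold change -3.22, SE 0.401, adjusted p = 0.000281). ABT-737 and young liver did not differ beyond their spread (log2 fold change -0.28, 95% interval -1.42 to 0.85, adjusted p = 0.756). These levels rest on few counts, 6 to 14 a library in young mice, 19 to 125 in vehicle mice and 4 to 7 in ABT-737 mice. Both calls held without any 1 library, with adjusted p from 6.41e-06 to 0.00653 for the drug and from 4.65e-07 to 0.000235 for age. Hmox1 could not be tested when at least 10 counts were required in every library.

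Liver libraries with high Hmox1 also had high levels of macrophage and monocyte markers. The 8 markers of that list (Ptprc, Cd68, Adgre1, Csf1r, Lyz2, Cd14, Mrc1 and Marco) summed to 85.2 to 113 CPM in young liver, to 257 to 514 CPM in vehicle liver and to 64.5 to 99.1 CPM in ABT-737 liver, with 2 or 3 of the 8 at 0 counts in each ABT-737 library and 0 to 2 in each vehicle library. Csf1r, the receptor for the macrophage growth factor CSF1, rose with age in liver by 1.94 on the log2 scale (adjusted p = 0.000153) and fell by 2.33 with ABT-737 (adjusted p = 0.000768). The red blood cell list, with 7 genes of which the globins dominate, summed to 396 to 1113 CPM in young, 2725 to 3317 in vehicle and 1163 to 2540 in ABT-737 liver, and so stood higher in ABT-737 than in young liver. Other leukocyte lists were arranged alike, with T and B cell markers at 2.98 to 5.81 CPM in young, 27.0 to 89.0 in vehicle and 0 to 12.4 in ABT-737 liver, and neutrophil markers at 0 to 4.47, 13.1 to 56.2 and 0 CPM. Hepatocyte markers moved less, from 63827 to 79239 CPM in young liver to 47668 to 64881 in vehicle and 70365 to 80460 in ABT-737 liver. In bulk tissue more cells of a type and more RNA per cell cannot be told apart. The part of any cell type in the Hmox1 result was not tested.

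In lung Hmox1 was at 41.2, 41.0, 36.4 and 24.9 CPM in young libraries, 75.8, 47.2 and 185 in vehicle libraries and 29.0, 39.0 and 63.1 in ABT-737 libraries. The vehicle libraries all lay above the young ones but were spread wide, with replicate 5 far above the other two. The rise with age was 2.88-fold (log2 fold change 1.52, SE 0.408, adjusted p = 0.0256). Without vehicle replicate 5 it was 0.77 on the log2 scale and was not called (adjusted p = 0.254), and the call was also lost without any 1 of the 4 young libraries (adjusted p from 0.0571 to 0.0833). Vehicle replicate 5 had the highest summed macrophage markers of lung, 2609 CPM, against 733 to 997 in young libraries, and the 2 other vehicle libraries had 1084 and 1473. The ABT-737 lungs had 1030, 1516 and 1493 CPM of these markers and overlapped the vehicle ones. The part of any cell type in lung Hmox1 was not tested. The log2 fold change from vehicle to ABT-737 in lung was -1.23 (SE 0.444, adjusted p = 0.204). The labels name no pairing of vehicle and ABT-737 mice. Lungs of the 2 groups with the same replicate number deviated alike (r = 0.17 to 0.42). Those with different numbers had r = -0.57 to 0.29. With that number as a block, a choice made from these data, the log2 fold change was -1.12 and was called (adjusted p = 0.0311). Young libraries carry numbers 1 to 4 and old ones 3 to 5, so the block is tied to age in part. Under it the age contrast was 1.12 and not called (adjusted p = 0.152), which is no test of the age result. The block moved the calls over all genes the same way, from 0 to 874 for the drug and from 1539 to 333 for age.

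Skin Hmox1 was at 21.7, 53.5 and 68.2 CPM in young libraries, 87.0, 130 and 159 in vehicle libraries and 88.5, 91.3 and 121 in ABT-737 libraries. Both old groups lay above the young range and overlapped each other. The rise with age was 2.60-fold (log2 fold change 1.38, SE 0.383, adjusted p = 0.0487). It sat close to the threshold, and was called in 1 of the 9 fits that left out 1 library (adjusted p from 0.0422 to 0.140). The change with ABT-737 was -0.32 on the log2 scale (95% interval -1.23 to 0.59, adjusted p = 0.876). Macrophage markers in skin summed to 105 to 344 CPM in young, 758 to 1884 in vehicle and 271 to 616 in ABT-737 libraries. Skeletal muscle markers went the other way, at 47534 to 66708 CPM in young, 7447 to 33869 in vehicle and 12342 to 38851 in ABT-737 skin, so that neither old group overlapped the young one. The part of either list in the values of Hmox1 and the other members in skin was not tested.

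In kidney Hmox1 was at 41.2, 31.7, 37.8 and 58.2 CPM in young libraries, 69.9, 51.3 and 48.8 in vehicle libraries and 40.6, 61.9 and 62.8 in ABT-737 libraries. All 3 groups overlapped. The log2 fold change was 0.45 with age (95% interval -0.06 to 0.96, adjusted p = 0.187) and -0.05 with ABT-737 (95% interval -0.60 to 0.50, adjusted p = 0.950). Kidney macrophage markers stood at 92.1 to 123 CPM in young, 193 to 270 in vehicle and 100 to 138 in ABT-737 libraries, and the red blood cell list at 1035 to 5901, 11629.9 to 11678 and 7583 to 11289 CPM. The part of any cell type in kidney Hmox1 was not tested.

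**Figure D3:**
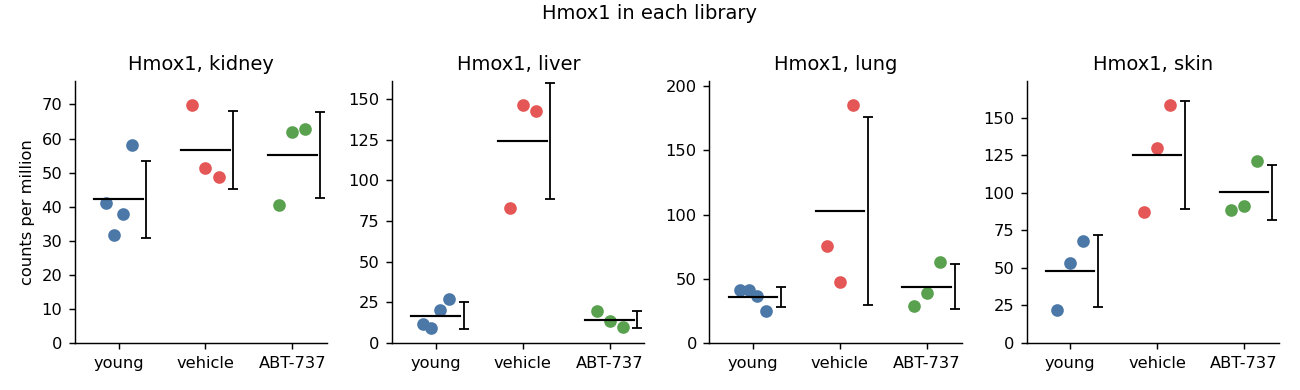
Points are Hmox1 levels of single libraries in CPM, horizontal bars are group means and vertical bars are 1 SD (3 or 4 libraries a group). In liver the vehicle libraries (82.9 to 146) stand clear of the others, in lung 1 vehicle library is at 185, and in kidney the groups overlap.

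**Figure D4:**
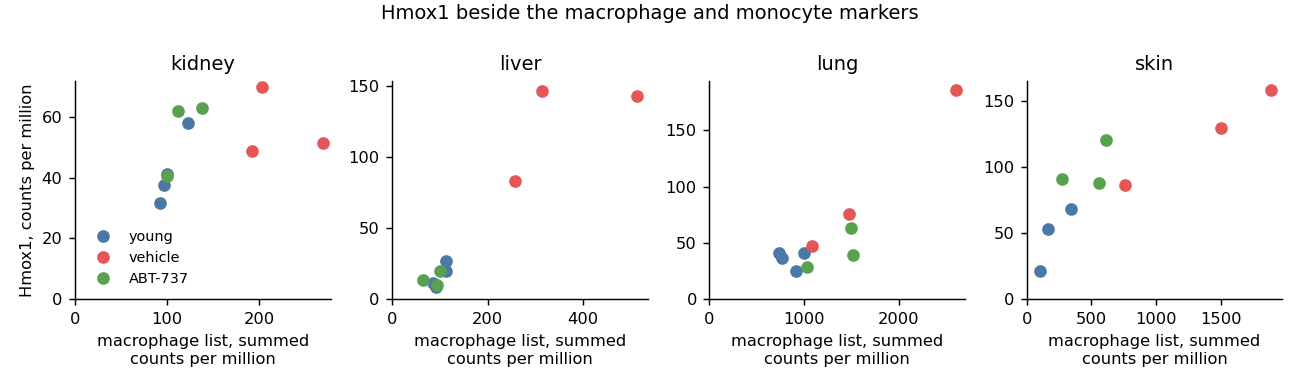
Each point is 1 library, with the summed CPM of 8 macrophage and monocyte markers on the horizontal axis and Hmox1 in CPM on the vertical axis, 1 panel a tissue. In liver all vehicle libraries lie to the right of and above the other groups, in lung and skin the library with the highest marker sum has the highest Hmox1, and in kidney vehicle libraries lie to the right while their Hmox1 overlaps the other groups.

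Nqo1, the quinone reductase often used as a readout of NRF2, was not called in any contrast in kidney or skin. In kidney it was at 24.4, 18.2, 26.0 and 22.2 CPM in young, 20.0, 11.6 and 24.4 in vehicle and 21.6, 13.4 and 18.2 in ABT-737 libraries, with log2 fold changes of -0.24 with age (95% interval -0.81 to 0.32) and -0.12 with ABT-737 (95% interval -0.76 to 0.52). In skin the level was low, 2.73 to 7.96 CPM in young, 1.76 to 4.14 in vehicle and 1.96 to 3.37 in ABT-737 libraries, and the age contrast of -0.87 had a 95% interval of -2.09 to 0.35. Liver libraries held 0 to 4 counts and lung libraries 0 to 9, which is too few to show a difference at this depth.

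Among the genes of glutathione synthesis, Gclc fell with age in kidney. Gclc encodes the catalytic subunit of glutamate-cysteine ligase, the rate-limiting enzyme. Kidney Gclc was at 317, 342, 261 and 326 CPM in young, 170, 125 and 177 in vehicle and 242, 222 and 206 in ABT-737 libraries. The 3 groups did not overlap, with ABT-737 between the others. The fall from young to vehicle was 1.97-fold (log2 fold change -0.98, SE 0.154, adjusted p = 0.000528), and this call held without any 1 library (adjusted p from 0.000435 to 0.00372). From vehicle to ABT-737 the log2 fold change was 0.50 (SE 0.163), which did not pass over all genes (adjusted p = 0.151), and from young to ABT-737 it was -0.48 (adjusted p = 0.110). In liver Gclc ranged over 137 to 261 CPM in young, 136 to 223 in vehicle and 196 to 273 in ABT-737 libraries, and in lung over 93.6 to 119, 85.3 to 134 and 76.9 to 149 CPM, with all groups overlapping. In skin Gclc was at 13.7, 16.1 and 11.4 CPM in young, 31.2, 18.5 and 18.5 in vehicle and 19.2, 63.5 and 41.5 in ABT-737 libraries. The old skin libraries all lay above the young ones, but the log2 fold changes of 0.72 for vehicle (adjusted p = 0.277) and 1.58 for ABT-737 (adjusted p = 0.0612) against young did not pass.

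Gclm encodes the modifier subunit of the same ligase, and was not called in kidney. Its fold changes there had the signs of those of Gclc with age and from vehicle to ABT-737. From young to ABT-737 Gclm had the other sign, at 0.04 on the log2 scale. It was at 677, 573, 703 and 746 CPM in young, 734, 420 and 475 in vehicle and 571, 795 and 720 in ABT-737 kidney, with log2 fold changes of -0.31 with age (adjusted p = 0.300) and 0.35 with ABT-737 (adjusted p = 0.431). Vehicle replicate 3 sat with the young libraries, and the other vehicle libraries were the lowest of the tissue. In liver Gclm was level, at 248 to 338 CPM in young, 214 to 322 in vehicle and 218 to 349 in ABT-737 libraries, with a log2 fold change of 0.00 for ABT-737 against vehicle (95% interval -0.58 to 0.59). Skin Gclm was at 20.3, 24.2 and 25.0 CPM in young, 33.8, 34.5 and 46.6 in vehicle and 22.8, 83.4 and 77.4 in ABT-737 libraries. An antisense transcript, Gm17494, and a pseudogene, Gm6061, overlap Gclm exons in GENCODE vM21, and reads of these loci may not be told apart.

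Txnrd1 and Srxn1, which keep the thioredoxin and peroxiredoxin cycle running, both rose in ageing kidney. Txnrd1, the cytosolic thioredoxin reductase, was at 90.5, 110, 83.7 and 93.2 CPM in young, 161, 119 and 132 in vehicle and 203, 146 and 137 in ABT-737 kidney. Neither old group overlapped the young one, and the old groups overlapped each other. The rise was 1.46-fold in vehicle (log2 fold change 0.55, SE 0.166, adjusted p = 0.0403) and 1.72-fold in ABT-737 mice (log2 fold change 0.78, SE 0.165, adjusted p = 0.0193) against young. These calls were lost in 5 and 4 of the 10 fits without 1 library. Of those fits, the age call failed without young replicates 1, 3 or 4 or vehicle replicates 3 or 5, and the other without young replicates 1, 3 or 4 or ABT-737 replicate 3. In lung Txnrd1 was at 23.3 to 34.8 CPM in young, 39.5 to 68.5 in vehicle and 26.3 to 92.2 in ABT-737 libraries, with log2 fold changes of 0.92 (adjusted p = 0.113) and 1.28 (adjusted p = 0.0748) against young. In liver it was at 52.2 to 94.9, 56.7 to 124 and 98.6 to 123 CPM and in skin at 49.9 to 66.4, 46.9 to 84.8 and 48.3 to 114 CPM in the same order, with no call.

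Srxn1 encodes sulfiredoxin, which restores over-oxidised peroxiredoxins. It was at 69.0, 63.4, 61.5 and 67.9 CPM in young, 84.8, 91.7 and 112 in vehicle and 77.1, 102 and 96.1 in ABT-737 kidney. All old libraries lay above all young ones. The rise from young to vehicle was 1.47-fold (log2 fold change 0.56, SE 0.148, adjusted p = 0.0202), and was lost without young replicate 2, young replicate 3 or vehicle replicate 5 (adjusted p up to 0.122). From vehicle to ABT-737 it changed by -0.07 (95% interval -0.44 to 0.31). In skin the vehicle libraries (35.1, 24.9 and 49.9 CPM) lay above the young ones (22.4, 15.0 and 23.2 CPM), with a log2 fold change of 0.86 that did not pass (adjusted p = 0.128). Liver and lung ranged over 24.9 to 48.0 and 19.7 to 42.0 CPM over all libraries.

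The superoxide dismutases were not called in any tissue or contrast. Sod1 in liver was at 1779, 1438, 1941 and 1851 CPM in young, 1593, 1062 and 1498 in vehicle and 2334, 2390 and 2028 in ABT-737 libraries. The ABT-737 libraries lay above all the others, and the log2 fold change against vehicle was 0.70 (SE 0.248, adjusted p = 0.145). Sod2 in liver had the same arrangement, at 292 to 327 CPM in young, 223 to 306 in vehicle and 334 to 408 in ABT-737 libraries, with a log2 fold change of 0.54 for ABT-737 against vehicle (SE 0.218, adjusted p = 0.217). In kidney Sod1 and Sod2 differed by 0.47 and 0.37 on the log2 scale between ABT-737 and vehicle (adjusted p = 0.252 and 0.363), with overlapping groups. In lung vehicle replicate 5 had the highest Sod2, 294 CPM against 82.7 to 127 in young libraries and 89.2 and 166 in the other vehicle libraries. Skin Sod2 was at 207, 185 and 174 CPM in young, 135, 136 and 147 in vehicle and 175, 160 and 155 in ABT-737 libraries, a log2 fold change of -0.44 with age in which the groups did not overlap (adjusted p = 0.102). Words of 31 bases were taken from the last 500 bases of the GENCODE vM21 transcripts with the names of the skin models. Of these, 45.7% for Sod1 and 16.8% for Sod2 occur in other genes (for Sod1, mainly Gm8566), and at most 0.426% for the other members. On this check the counts of Sod1 and Sod2 are less certain than those of the other members. Srxn1 gave 345 words where the other members gave 470, though its skin model has 2372 bases, so its counted end may not have been fully checked.

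Of the enzymes that remove hydrogen peroxide, Cat fell with age in liver. Liver Cat was at 838, 700.4, 794 and 683 CPM in young, 127, 293 and 483 in vehicle and 439.9, 671 and 631 in ABT-737 libraries. Vehicle libraries all lay below the young ones, and ABT-737 libraries lay below the young ones and overlapped the vehicle ones. The fall with age was 2.45-fold (log2 fold change -1.29, SE 0.329, adjusted p = 0.0108) and was called without any 1 library (adjusted p from 0.00116 to 0.0349). Vehicle to ABT-737 was 0.92 on the log2 scale (SE 0.345, adjusted p = 0.173). It passed without vehicle replicate 5 (1.44 on the log2 scale, adjusted p = 0.0201), and ranged from 0.60 to 1.44 over the fits without 1 library. Vehicle replicate 3, the liver library with the lowest Cat, had 29 Cat counts and was the shallowest of all libraries, with a total of 223957.

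In kidney Cat was at 320, 304, 340 and 278 CPM in young, 333, 266 and 318 in vehicle and 448, 482 and 402 in ABT-737 libraries. The ABT-737 libraries lay above the other 2 groups, which overlapped. The log2 fold change was 0.54 against vehicle (SE 0.145, adjusted p = 0.0845) and 0.52 against young (SE 0.134, adjusted p = 0.0545), and DESeq2 called both (adjusted p = 0.0176 and 0.0106). In lung Cat was at 114, 104, 127 and 112 CPM in young, 102, 69.5 and 49.7 in vehicle and 138, 131 and 103 in ABT-737 libraries. The vehicle libraries were the lowest, and the log2 fold change was -0.64 with age (adjusted p = 0.124) and 0.75 with ABT-737 (adjusted p = 0.215), the latter 0.80 and called with the replicate number as a block (adjusted p = 0.0421), a fit that called 874 genes in all against 0. Cat in skin ranged over 39.7 to 53.5 CPM in young, 44.4 to 76.5 in vehicle and 28.6 to 72.4 in ABT-737 libraries.

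Gpx1, the cytosolic glutathione peroxidase, was at 4800, 4535, 4075 and 3810 CPM in young, 2793, 2239 and 3519 in vehicle and 4213, 4055 and 3795 in ABT-737 liver. Vehicle libraries lay below all others, and neither contrast passed (age -0.59 on the log2 scale, adjusted p = 0.0825, and ABT-737 0.50, adjusted p = 0.362). In skin the order was the other way, with 465, 491 and 509 CPM in young, 511, 855 and 1182 in vehicle and 516, 390 and 428 in ABT-737 libraries. The log2 fold change in skin was 0.80 with age (adjusted p = 0.0976) and -0.93 with ABT-737 (SE 0.290, unadjusted p = 0.00976 in edgeR, adjusted p = 0.476). Kidney ranged over 3964 to 6304 CPM and lung over 620 to 1003 CPM, with overlapping groups in each contrast.

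**Figure D5:**
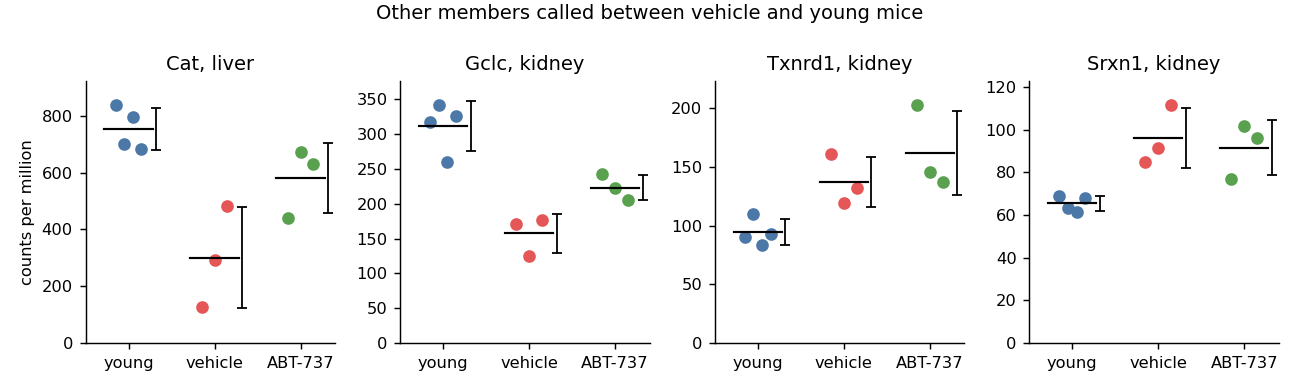
Points are single libraries in CPM, horizontal bars are group means and vertical bars are 1 SD (3 or 4 libraries a group). The means of liver Cat and kidney Gclc are lowest in vehicle mice, with ABT-737 libraries above the vehicle mean, and kidney Txnrd1 and Srxn1 are higher in both old groups than in young libraries. For liver Cat the vehicle and ABT-737 libraries overlap.

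Whether a change differed between tissues was tested as an interaction over the 30 kidney, liver and lung libraries. The titles repeat replicate numbers across tissues, so libraries of different tissues may come from the same mice. The fit has no term for the mouse, nor has the comparison of young tissues above. The drug effect on Hmox1 differed between kidney and liver by 3.22 on the log2 scale (SE 0.636, adjusted p = 0.0236), which was the 1 member of 10 called (background 0.0839%). Between kidney and lung 0 of 10 members and 0% of all genes were called, and between liver and lung 0 of 10 (background 0.29%), with 1 member at an unadjusted p under 0.05 in each, Hmox1 both times. The age effect on Hmox1 differed between kidney and liver by -2.53 (SE 0.542, adjusted p = 0.0136, background 0.786%). The liver-to-lung difference in that effect was 1.42 (adjusted p = 0.0835) and the kidney-to-lung one -1.11 (adjusted p = 0.140). The age effect on Gclc differed between kidney and lung by -1.13 (SE 0.336, adjusted p = 0.0331, background 8.04%), and that between kidney and liver, -0.77, did not pass (adjusted p = 0.367). For liver against lung 0 of 10 members were called (background 11.4%), with 3 at an unadjusted p under 0.05. The age effect on Cat was 1.22 higher in kidney than in liver, without passing (adjusted p = 0.170). Skin, in a table of its own, was not compared with the other tissues.

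The wider pathway was taken as 77 further genes in 8 lists. Between vehicle and young mice 19 of 58 genes tested were called in liver (8 higher, 11 lower), where 22.6% of all genes were. Kidney had 13 of 68 (8 higher, 5 lower, background 13.3%), skin 11 of 68 (10 higher, 1 lower, background 11.2%) and lung 8 of 69 (all higher, background 12.9%). Between ABT-737 and vehicle mice 3 of 68 were called in kidney (1 higher, 2 lower, background 1.35%), 4 of 58 in liver (1 higher, 3 lower, background 3.85%), and 0 of 69 in lung and 0 of 68 in skin, where edgeR called no gene at all.

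The list of superoxide sources rose with age in part in every tissue. It holds subunits of the phagocyte NADPH oxidase, which makes superoxide, with Rac2, Nox4 and xanthine dehydrogenase (Xdh), and 0 of its genes were called lower with age in any tissue. Kidney had 5 of 8 tested genes rising (background 13.3% in either direction), lung also 5 of 8 (12.9%), liver 2 of 3 (22.6%) and skin 6 of 7 (11.2%). The median log2 fold change of the genes tested was 1.62 for kidney, 1.64 for lung, 2.98 for liver and 2.50 for skin. Rac2, a haematopoietic GTPase of the oxidase, rose by 2.65 in kidney (adjusted p = 3.31e-05), 3.11 in liver (adjusted p = 1.69e-05), 2.55 in lung (adjusted p = 0.00407) and 2.64 in skin (adjusted p = 0.0231) on the log2 scale. It fell by 1.50 in kidney (adjusted p = 0.0246) and by 3.11 in liver (adjusted p = 0.000348) from vehicle to ABT-737. Cyba, the p22phox subunit, rose by 2.98 with age in liver (adjusted p = 2.25e-05) and fell by 2.39 with ABT-737 (adjusted p = 0.00152), and Xdh in kidney rose by 1.42 and fell by 1.36 (adjusted p = 0.00132 and 0.0227). Apart from Nox4 and Xdh, most of these genes are also leukocyte genes. The macrophage list given above was also higher in vehicle than in young libraries in each tissue. The part of leukocytes in these values was not tested.

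Among glutathione peroxidases and extracellular or chaperone SOD proteins, 2 of 3 genes tested rose with age in liver (background 22.6% in either direction), with none called in the other tissues. Gpx3, the secreted peroxidase, rose by 1.69 on the log2 scale (adjusted p = 0.000505) and fell by 1.62 with ABT-737 (adjusted p = 0.00889), and Sod3 rose by 1.26 with age (adjusted p = 0.0105). In the NADPH supply list, Idh1 fell with age in kidney, by 0.93 on the log2 scale (1 of 7 called, background 13.3%), and 4 of 7 were called in liver (background 22.6%). These were Me1, malic enzyme, which fell by 2.66, G6pdx, the entry of the pentose phosphate pathway, which rose by 1.82, Idh1, which fell by 1.55, and Pgd, which rose by 0.997 and was named after its value was seen. G6pdx and Pgd also rose in skin, by 1.81 and 1.44. Me1 rose by 0.87 with ABT-737 in kidney (adjusted p = 0.0335).

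Of the other NRF2 targets in detoxification, 4 of 13 were called lower with age in liver and 1 higher (background 22.6% in either direction). Ugdh fell by 1.48 on the log2 scale, Aox1 by 1.22 and Ephx1, microsomal epoxide hydrolase, by 1.04, and Ephx1 rose by 1.19 with ABT-737 (adjusted p = 0.0270). In kidney Ces1g fell by 1.63 and Gsta3 rose by 0.52 with age (2 of 12 called, background 13.3%). In skin Cbr3 rose by 1.41 and Gstp1 fell by 0.80 (2 of 12, background 11.2%), and 0 of 14 were called in lung (background 12.9%). Of the glutathione synthesis and recycling genes, Chac2 fell by 0.87 in kidney and by 1.79 in liver, Oplah rose by 0.48 in kidney, Ggt1 and Glrx rose by 2.33 and 1.17 in lung, and Glrx rose by 2.77 in skin with age. They made 2 of 8 genes tested for kidney (background 13.3%) and for lung (12.9%), 1 of 8 for liver (22.6%) and 1 of 9 for skin (11.2%). With so few genes a list, counts in this paragraph near these shares are no result about a list. The 10 listed thioredoxins and peroxiredoxins gave 1 call a tissue except in skin (same backgrounds): Prdx3 fell by 0.57 in kidney, Prdx4 fell by 1.38 in liver and Prdx5 rose by 1.42 in lung. In the haem and iron list (8 genes, same backgrounds), Slc40a1, the iron exporter ferroportin, fell with age by 1.08 in kidney and 1.93 in liver. Fech, which adds the iron in the last step of haem synthesis, fell by 0.85 in liver, with no call in lung or skin. Of the 10 NRF2 regulators (same backgrounds), Maff rose by 1.48 in kidney, and in liver Cul3, part of the ligase that degrades NRF2, fell by 3.13 and Nfe2l1 rose by 0.72. Nfe2l2, Keap1 and Bach1 were not called in any tissue or contrast. Between ABT-737 and vehicle mice 0 genes of the glutathione synthesis, thioredoxin, haem and iron, and regulator lists were called by edgeR in any tissue.

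Against young mice, ABT-737 mice had 6 of 58 wider pathway genes called in liver (2 higher, 4 lower, background 8.4%), 2 of 68 in skin (both higher, background 5.17%), 0 of 68 in kidney (background 2.12%) and 0 of 69 in lung (background 2.55%). Those in liver were Idh1 (-1.71 on the log2 scale), Cul3 (-2.91), Slc40a1 (-2.73), Ugdh (-1.27), Gsta2 (0.97) and Txnip (1.07), and those in skin were G6pdx (2.32) and Slc40a1 (4.20).

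The genes whose pattern over the 30 kidney, liver and lung libraries was most like that of a called member were found from log2 CPM centred on the tissue mean, over 5122 genes that passed the filter in all 3 tissues. For Hmox1 they were Sirpa (Pearson r = 0.87), Ppp1r18 (0.85) and Lgmn (0.85). For Cat they included Ghr (0.87) and Atp2a2 (0.86), and for Txnrd1 they were Hsp90aa1 (0.84), Leo1 (0.81) and Set (0.80). Gclc had Mfsd2a (0.73), Mrps10 (0.67) and Acat1 (0.60), and Srxn1 had Bgn (0.68), Ppp1r21 (0.66) and Cry1 (0.64). The likeness is a description over libraries that share depth, group and tissue, and 2 genes in the same libraries share those too.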

How the data were processed

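The 39 libraries are 3′-end MARS-seq libraries of perfused tissue. The files the authors deposited hold raw counts, whole numbers that had not been normalized. Per the labels, reads were processed with bcl2fastq, HISAT 0.1.5 and HOMER on mm10. Whether molecule barcodes were collapsed or strand was used is not given in the sources used here, and reads without collapsed barcodes are not independent molecules. Libraries were grouped by title (some treatment labels of ABT-737 libraries read ABT-738 or ABT-739). None was left out, and 0 of 45 pairs within a group were identical.

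Each tissue was fitted apart with its 3 groups in edgeR 4.0.16 under R 4.3.3 (filterByExpr, TMM, quasi-likelihood test, Benjamini-Hochberg adjustment over all genes tested, call at an adjusted p under 0.05). The SE is the log2 fold change over the root of F. The skin table uses other transcript models, and no level was compared between tables. Alternatives were DESeq2 1.42.0, its size factors, no filter, a minimum of 10 counts per library, fits restricted to the groups compared, the replicate number as a block, and leaving out each library. Vehicle and ABT-737 lungs with the same number correlated at r = 0.17 to 0.42 in their deviations from the group means. Those with different numbers correlated at r = -0.57 to 0.29. The block in lung was picked from these values, and the labels name no pairing. In the other tissues at least 1 same-numbered pair was under 0.1. The pipeline was tested on simulated data.

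The members and lists were chosen with earlier results of these data known. Named genes were the 10 members, called genes of the 8 wider lists (at most 3 a list and contrast, by size), Prf1, and the 3 genes most like each called member (log2 CPM with a prior count of 1). Pgd in liver was added after its value was seen. Csf1r, of the macrophage list, was named outside this rule. A further gene with a pattern like that of Cat is not reported here.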

Additional observations from a re-analysis of the deposited data

Results flagged for a closer look

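The drug effect on Hmox1 differed between kidney and liver by 3.22 on the log2 scale (kidney minus liver), and the test of that difference passed. The age effect on Hmox1 differed between the same tissues by -2.53, and that of Gclc between kidney and lung by -1.13. These 3 were picked out because an effect under 1 contrast was tested to differ between 2 tissues. Dixon's test picked out 0 libraries in the 30 groups of 4 that were checked, which are young libraries of kidney, liver and lung. Groups of 3, among them every vehicle and ABT-737 group, were not checked.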

How the results depend on the processing

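Depth limits Nqo1 in liver and lung and the precision of Hmox1 in liver, and 3 or 4 libraries a group leave small changes unresolved. Of 1007 values recomputed under alternatives other than leaving out a library, 952 kept their direction and side of the threshold, 15 lost a call, 24 gained one, 16 moved by over 1 SE and 0 called values turned. Over 1470 fits without 1 library the figures were 1394, 31, 21, 24 and 0. The cause of these changes was not tested, other than where fewer genes or libraries were in the fit.

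The number of members called changed as follows. DESeq2 gave 1 in place of 0 for kidney ABT-737 against vehicle, 2 in place of 1 for kidney ABT-737 against young, 1 in place of 0 for lung ABT-737 against young, 2 in place of 1 for skin vehicle against young and 2 in place of 0 for skin ABT-737 against young. Without a filter it was 2 in place of 1 for liver ABT-737 against vehicle, 1 in place of 0 for lung and 2 in place of 0 for skin ABT-737 against young. With at least 10 counts in every library, where Hmox1 in liver drops out, it was 0 in place of 1 for liver ABT-737 against vehicle and for the kidney-to-liver differences of both contrasts, 1 in place of 0 for skin ABT-737 against young, 2 in place of 1 for the kidney-to-lung and 2 in place of 0 for the liver-to-lung difference of the age effect. In fits of the compared groups alone it was 2 in place of 1 for kidney ABT-737 against young, 1 in place of 0 for liver ABT-737 against young and 2 in place of 1 for lung vehicle against young. Over all genes DESeq2 called 229 in place of 150 and 353 in place of 236 for those kidney contrasts. It called 783 in place of 305 in lung, and 2665 in place of 1592 and 2116 in place of 735 in skin. Without a filter, liver ABT-737 against vehicle had 512 in place of 215 genes called. Skin ABT-737 against young then had 1667 in place of 735, and lung ABT-737 against young 805 in place of 305. The compared groups alone gave 286 in place of 236, 1102 in place of 469 and 2239 in place of 1539, in that order. With at least 10 counts in every library, where fewer genes were in the fit, liver ABT-737 against vehicle had 105 in place of 215. Skin ABT-737 against young had 757 in place of 735. The kidney-to-liver differences had 0 in place of 11 (drug) and 21 in place of 103 (age). Those of the age effect had 275 in place of 1054 for kidney to lung and 457 in place of 1499 for liver to lung.

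With the replicate number as a block, the number of members called was 2 in lung ABT-737 against vehicle (Hmox1 and Cat), 0 in lung vehicle against young, 0 in kidney vehicle against young and kidney ABT-737 against young, 2 in liver ABT-737 against vehicle, 1 in liver vehicle against young (Hmox1) and 0 in skin vehicle against young. Over all genes the block took the calls in lung from 0 to 874 for ABT-737 against vehicle and from 1539 to 333 for vehicle against young, and those for vehicle against young from 1474 to 369 in kidney, 1261 to 291 in liver and 1592 to 0 in skin. It took those for ABT-737 against vehicle in liver from 215 to 273, and those for ABT-737 against young in kidney from 236 to 33. The labels name no pairing, and outside lung same-numbered libraries did not all deviate alike. Young libraries carry numbers 1 to 4 (1 to 3 in skin) and old ones 3 to 5, so the block is tied to age in part. Calls against young mice that were lost under it are no test of the age results. Gclc in kidney had an adjusted p of 0.0592 and Cat in liver of 0.0509 under the block.

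Without 1 library, the number of members called ranged from 0 to 1 in kidney ABT-737 against vehicle, 0 to 2 in kidney ABT-737 against young, 1 to 3 in kidney vehicle against young, 1 to 2 in liver ABT-737 against vehicle, 0 to 1 in lung ABT-737 against young, 0 to 2 in lung vehicle against young, 0 to 3 in skin ABT-737 against young and 0 to 2 in skin vehicle against young. The calls over all genes moved in these fits too. In the same order they ranged from 57 to 471, 107 to 308 and 842 to 1885 in kidney and 44 to 529 in liver. In lung they ranged from 1 to 1399 and 502 to 2426, and in skin from 3 to 2875 and 39 to 2459.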
